A study of Mus musculus with 7 samples.

Results

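Integrins are the receptors by which cells grip the matrix and each other, and each is a pair of 1 alpha and 1 beta chain. Laminins are the cross-shaped proteins of basement membranes, the thin sheets under vessel linings and around muscle fibres, and each is a trimer of an alpha, a beta and a gamma chain. In bone, osteoclasts and osteocytes hold on to mineralized matrix through integrins that contain the alpha v, beta 3 or beta 1 chain, and marrow leukocytes and platelets carry integrins of their own. All genes whose symbol names an integrin alpha chain, an integrin beta chain from 1 to 8 or a laminin chain were taken from the counted genes, which gave 37 of 27179 genes, with 18 integrin alpha, 8 integrin beta and 11 laminin genes. All 37 passed the filter on low counts and were among the 15098 genes tested.

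The RNA came from marrow-flushed femoral cortical bone of female C57BL/6 mice at 12 weeks of age. Mice with the genotype Dmp1Cre.EfnB2f/f (n = 3) carry a Cre recombinase under a fragment of the Dmp1 promoter and a floxed gene for ephrin B2, a membrane ligand of Eph receptors, so that the gene is targeted in late osteoblasts and osteocytes. The controls (n = 4) carry the same Cre without the floxed allele and were littermates or cousins. The comparison asks which chain genes differ in bone whose osteocytes were meant to lack ephrin B2. Whole bone also holds vessels, marrow left after flushing and attached muscle. In bulk RNA fewer cells of a type and less RNA per cell cannot be told apart. The labels give 4 parent crosses, of which only that of library 3 of each genotype held mice of both genotypes, so that cross and genotype cannot be told apart in the other 5 mice. Bones were collected on 2 days, each with mice of both genotypes, and since the labels do not say which mouse belongs to which day, the tests below have no term for the day, whose part in any result was not tested.

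Library totals ran from 18119947 to 19119250 counts in the Dmp1Cre.EfnB2f/f group and from 17245556 to 22075778 in the controls. Efnb2 had 322, 239 and 224 counts in the 3 Dmp1Cre.EfnB2f/f-labelled libraries and 164, 139, 110 and 117 in the controls. The targeted gene was thus higher, not lower, in the libraries labelled as deficient (log2 fold change 0.96, standard error (SE) 0.21, adjusted p = 0.511 by edgeR's quasi-likelihood model, p = 0.0286 by exact permutation test). But these counts cover the whole gene rather than the floxed exon and come from all cells of the bone, including those in which the Cre is not active. They do not show whether osteocytes lost the exon. The paper also sorted osteocytes from younger mice, which carried a green fluorescent transgene beside this genotype. In these it found by PCR of the floxed region that Efnb2 was effectively targeted. Non-osteocytic cells kept it there. Why the counts were higher in the libraries labelled as deficient was not tested. The libraries are named by their labels throughout. All 8 osteoblast and osteocyte markers examined were detected, with a summed level of 8414 to 13991 CPM (counts scaled to a common library size) in the Dmp1Cre.EfnB2f/f-labelled libraries and of 8259 to 40967 CPM in the controls, the highest in control 1. Col1a1 made up most of this sum in every library, with 38291 CPM in control 1. Bglap, Bglap2, Dmp1, Mepe and Sost were also highest in control 1, but Ibsp and Phex were highest in Dmp1Cre.EfnB2f/f-labelled library 1. Controls 1 and 4 stood apart from the other 5 libraries on the first principal component, which held 53.9% of the variance, so the results below that rest on control 1 are also given without it.

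The RefSeq promoter table of GRCm38.p6, the build of the counts (mm10), had entries for 23 of the 37 genes. The 250 bases before an annotated start, written 5′ to 3′ on the strand of the gene, are shown for 4 of them, because these genes carry the differences described below: Itgam and Itgb7 were lower and Itga1 higher in the Dmp1Cre.EfnB2f/f-labelled libraries, and Lama2 is the laminin chain that the study singles out. Capitals mark GAGGAA or its reverse complement TTCCTC, the core letters bound by the leukocyte factor PU.1, which hold the GGAA common to ETS factors.
Itgam, chr7:128062390-128062639, plus strand: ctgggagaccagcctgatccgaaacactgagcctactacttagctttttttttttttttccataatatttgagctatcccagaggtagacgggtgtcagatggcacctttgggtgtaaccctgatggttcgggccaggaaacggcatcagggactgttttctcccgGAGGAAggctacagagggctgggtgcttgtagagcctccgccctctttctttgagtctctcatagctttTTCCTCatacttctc
Itgb7, chr15:102231936-102232185, minus strand: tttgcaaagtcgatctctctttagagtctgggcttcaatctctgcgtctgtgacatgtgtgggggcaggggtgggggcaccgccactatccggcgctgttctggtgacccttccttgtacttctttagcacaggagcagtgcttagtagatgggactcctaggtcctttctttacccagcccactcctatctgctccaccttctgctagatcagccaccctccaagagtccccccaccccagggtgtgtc
Itga1, chr13:115101965-115102214, minus strand: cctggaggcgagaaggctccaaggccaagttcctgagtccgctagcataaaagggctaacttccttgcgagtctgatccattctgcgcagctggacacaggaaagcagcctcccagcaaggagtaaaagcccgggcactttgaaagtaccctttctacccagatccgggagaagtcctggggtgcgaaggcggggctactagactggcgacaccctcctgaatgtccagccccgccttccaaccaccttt
Lama2, chr10:27616943-27617192, minus strand: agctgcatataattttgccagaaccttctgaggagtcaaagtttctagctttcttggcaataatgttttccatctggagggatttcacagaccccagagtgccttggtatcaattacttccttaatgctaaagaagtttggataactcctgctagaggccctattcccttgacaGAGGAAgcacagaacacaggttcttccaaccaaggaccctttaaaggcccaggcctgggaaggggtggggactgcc

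The windows of Itgam and Itga1 lie just outside the gene spans given below. That of Itgb7 lies inside its span and that of Lama2 almost wholly so, before starts within the gene. The searched letters occurred at 2 places in the Itgam window, at 1 place in the Lama2 window and at no place in those of Itgb7 and Itga1. Among all 26 windows of the members, 13 held them, against 23.3% of the 32851 windows of this length in the table. The windows of Itga2b, the platelet alpha chain, and of Itgav, an alpha chain of osteoclasts and osteocytes, also held them at 2 places, and 3.54% of all windows held at least 2. The CG dinucleotide occurred 6 times in the Itgam window and 0 times in that of Lama2, where the median over all windows was 6 and where Itga3 had the highest value among the members, with 22. Such matches describe the letters only.

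To compare genes with each other, levels were taken as TMM-normalized CPM per kilobase of exon length. In the controls the highest were Itgb2, the beta chain of leukocyte integrins, with 170 ± 37.05 CPM per kilobase (SD, n = 4), and the platelet pair Itga2b with 168 ± 77.7 and Itgb3 with 141 ± 46.1. Itgb2 was above Itga2b in only 2 of the 4 controls, so their order was not set beyond the spread, while Itga2b was above Itgb3 in all 4. Itgam, the alpha chain of the neutrophil and macrophage integrin Mac-1, followed with 107 ± 5.21, and Itgb1, the beta chain shared by most matrix receptors, with 65.3 ± 16.7. Itgb5, Itga6, Itgb7 and Itga4 lay between 32.4 and 36.7 CPM per kilobase, and each was above the next in 2 of the 4 controls. The highest laminin chain was Lamb2 with 25.6 ± 13.8 CPM per kilobase.

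**Figure D1:**
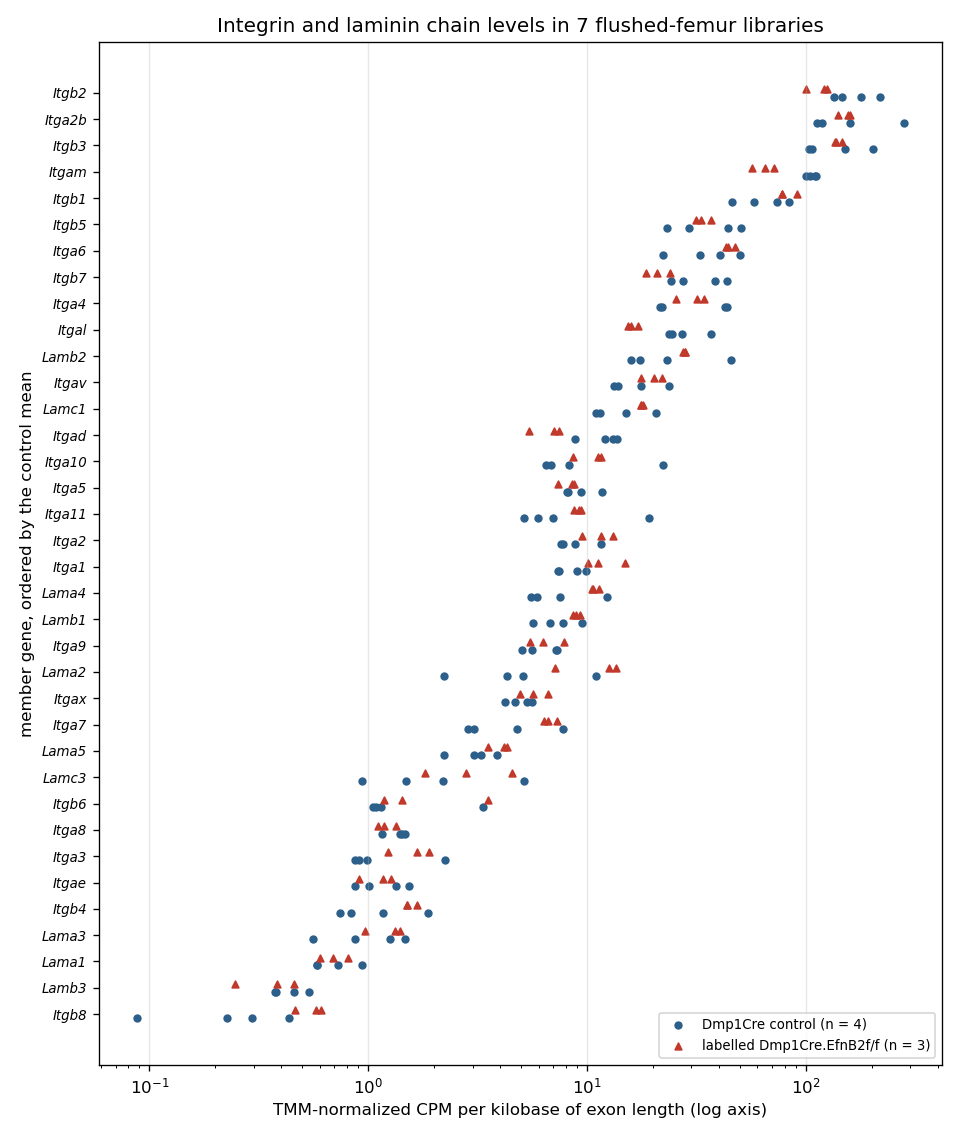
Level of 36 chain genes in every library, in TMM-normalized CPM per kilobase of exon length on a log axis, ordered by the control mean. Circles are the 4 Dmp1Cre controls and triangles the 3 Dmp1Cre.EfnB2f/f-labelled libraries; Itgb2, Itga2b and Itgb3 are at the top and Lama1, Lamb3 and Itgb8 lie under 1 in the control mean.

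At the other end, 4 genes had a control mean under 1 CPM per kilobase, among them Lama1, the alpha chain of embryonic laminin, Lamb3, a chain of an epithelial laminin, and Itgb8, a beta chain that pairs with alpha v. Itgb8 had between 5 and 34 counts in a library, so its counting error is large.

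Chains that must pair can be compared within a library. The alpha chains that pair with Itgb2 are Itgal, Itgam, Itgax and Itgad, and their summed level per kilobase was 0.868, 0.767 and 0.795 times that of Itgb2 in the Dmp1Cre.EfnB2f/f-labelled libraries and 0.880, 1.00, 1.07 and 0.716 times in the controls. The values overlapped between the genotypes. Itgam made up 64.3% to 74.7% of these alpha chains in the 7 libraries, Itgal 16.3% to 23.6%, Itgad 5.50% to 8.70% and Itgax 2.85% to 7.68%. For Itgb3 the partners are Itgav, found in osteoclasts and osteocytes, and Itga2b, found in megakaryocytes, and Itga2b held 83.4% to 95.5% of the pair in every library. The sum of both was 1.15 to 1.45 times the level of Itgb3. Hence most of the Itgb3 partner level per kilobase was that of the platelet chain.

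In laminins, 1 chain led the beta and the gamma position in every library, and the alpha position changed hands. Lamb2 held 69.1% to 82.1% of the beta chain level and Lamc1 78.0% to 91.2% of the gamma chain level over the 7 libraries. Among the alpha chains, Lama4, the chain of vessel basement membrane, held 34.7% to 52.8%, Lama2, the chain of muscle basement membrane, held 15.4% to 44.5%, and Lama5, a chain of mature vessels and epithelia, held 13.2% to 22.9%. Lama2 was the largest alpha chain in Dmp1Cre.EfnB2f/f-labelled libraries 1 and 2, with 42.5% and 44.5%, whereas Lama4 was the largest in the other 5 libraries. Summed beta chains were 1.23 to 2.19 times the summed alpha chains, and summed gamma chains 0.681 to 1.16 times.

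Between the genotypes, 0 of the 37 genes had an adjusted p-value under 0.05 in edgeR's quasi-likelihood test, as did 0% of all genes tested, and the members' adjusted p-values ran from 0.511 to 0.996. At an unadjusted p-value under 0.05, 5 of the 37 were lower and 2 were higher, where 5.03% and 4.63% of all genes were. The same 5 genes lay lower without overlap of the groups (6.3% of all genes) and the same 2 lay higher (5.05% of all genes). The 5 were Itgal, Itgad, Itgam, Itgb2 and Itgb7, which are all chains of leukocyte integrins, and the 2 were Itga1 and Itgb8. The median log2 fold change was 0.21 over the 37 genes and 0.01 over all genes tested.

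**Figure D2:**
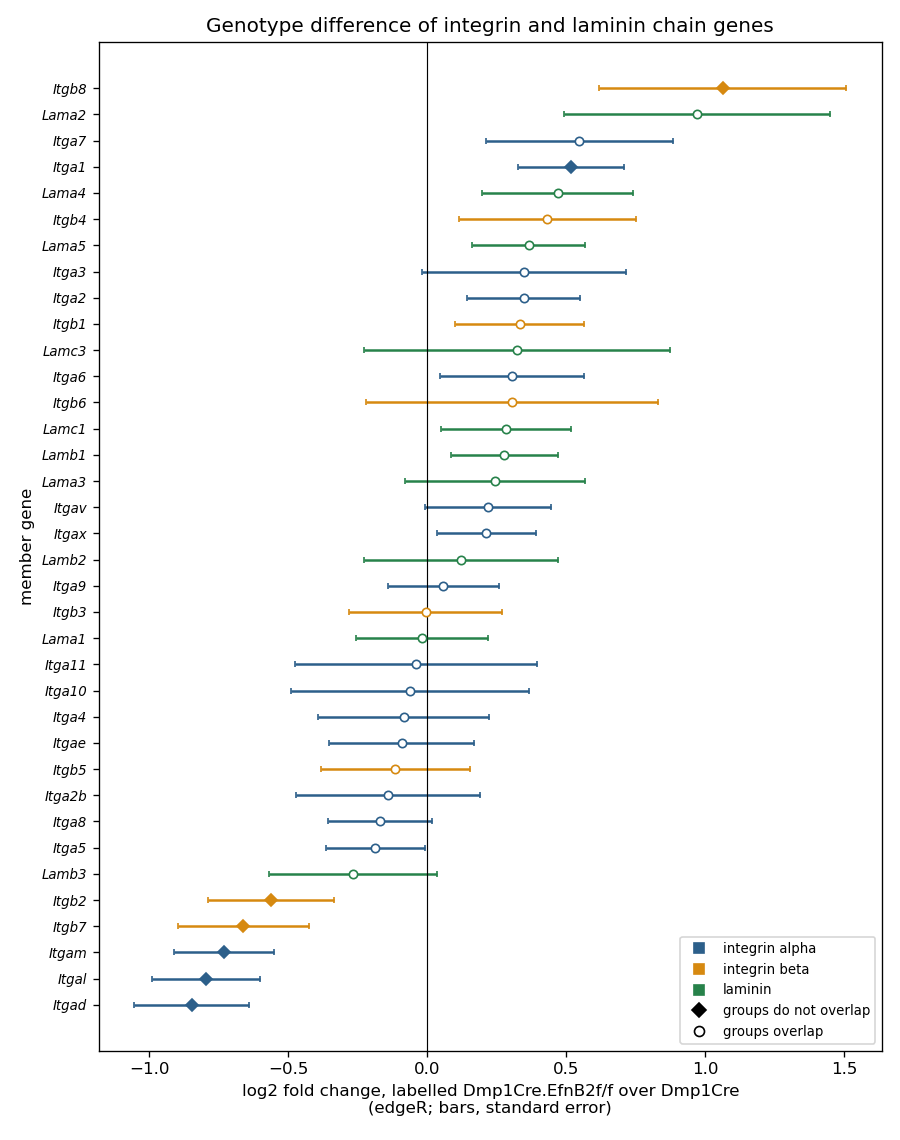
Log2 fold change of 36 chain genes between the Dmp1Cre.EfnB2f/f-labelled libraries and the Dmp1Cre controls (edgeR), with standard errors as bars and colours for integrin alpha, integrin beta and laminin genes. Filled diamonds are the 7 genes whose groups did not overlap, 5 on the left and 2 on the right, and open circles the 29 whose groups did.

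Itgam (chr7:128062640-128118491) had 265, 303 and 334 CPM in the Dmp1Cre.EfnB2f/f-labelled libraries and 521, 517, 489 and 469 CPM in the controls. All controls were above all of the former, and the 4 controls lay close together. The log2 fold change was -0.73 (SE 0.18, edgeR adjusted p = 0.511; exact two-sided permutation, p = 0.0286, which is the lower limit for 3 against 4 libraries). Itgal (chr7:127296139-127335137), the alpha chain of the lymphocyte integrin LFA-1, had 82.5, 80.7 and 89.5 CPM against 142, 127, 124 and 192 CPM, again without overlap. Its log2 fold change was -0.80 (SE 0.19, edgeR adjusted p = 0.511; exact permutation test, p = 0.0286). Itgad (chr7:128173933-128205504), an alpha chain of macrophages, had 29.6, 27.9 and 21.6 CPM against 54.4, 34.9, 47.9 and 52.3 CPM. Its log2 fold change was -0.85 (SE 0.21, edgeR adjusted p = 0.511; exact permutation test, p = 0.0571).

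The leukocyte beta chains had smaller fold changes. Itgb2 (chr10:77530329-77565708) had 285, 347 and 356 CPM in the Dmp1Cre.EfnB2f/f-labelled libraries and 513, 421, 386 and 623 CPM in the controls, with a log2 fold change of -0.56 (SE 0.23, edgeR adjusted p = 0.511, exact permutation test p = 0.0571). Itgb7 (chr15:102215994-102233405), which pairs with alpha 4 and alpha E in lymphocytes, had 49.8, 55.7 and 64.0 CPM against 103, 73.2, 64.5 and 117 CPM. The gap between the groups was narrow there, since the third Dmp1Cre.EfnB2f/f-labelled library nearly reached control 3. Its log2 fold change was -0.66 (SE 0.24, edgeR adjusted p = 0.511, exact permutation test p = 0.114). With the parent cross of the labels as a block, the log2 fold change of Itgb7 was -0.01 and that of Itgb2 was -0.12, while those of Itgam and Itgal were -0.55 and -0.46 and that of Itgad was -1.15. In that fit the genotypes are compared within library 3 of each, the only pair from 1 cross. Without controls 1 and 4 the values of Itgb2 and Itgb7 were -0.29 and -0.28.

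The other chains that leukocytes use overlapped between the groups. Itgax, the alpha chain of dendritic cells and macrophages, had 26.7, 22.9 and 19.8 CPM against 21.3, 16.9, 18.9 and 22.7 CPM and a log2 fold change of 0.21 (SE 0.18). Itgae, which shares its span with Haspin over 2811 bases, and Itga4, which pairs with Itgb1 or Itgb7, also overlapped. Itga4 had 338, 312 and 251 CPM against 216, 418, 427 and 212 CPM, and here controls 1 and 4 were the lowest of the 7 libraries. Itgam, Itgax and Itgad lie in this order on chromosome 7, with 11035 and 23276 bases between them. Itgad shares 70 bases with Cox6a2, a muscle gene, and Haspin had 3540 counts over all libraries where Itgae had 672, so the values of Itgae are uncertain.

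The summed neutrophil markers were lower in the same libraries, without overlap. Of the single markers only S100a8, Ngp and Ltf did not overlap. All 9 neutrophil markers examined had a log2 fold change below 0, with a median of -0.50, and 2 of them (Ltf and Mmp8) had an unadjusted p-value under 0.05. Their summed level was 12314 to 15507 CPM in the Dmp1Cre.EfnB2f/f-labelled libraries and 17769 to 20329 CPM in the controls, and none of the 9 was at 0. Relative to 1000 CPM of this sum, Itgam had 21.5, 19.5 and 22.3 CPM against 28.2, 26.3, 27.5 and 23.1 CPM, which did not overlap. The gap was narrow, between 22.3 in the third Dmp1Cre.EfnB2f/f-labelled library and 23.1 in control 4. Itgal, Itgad, Itgb2 and Itgb7 overlapped on this scale. Itgax did not overlap on that scale in the other direction, with 2.17, 1.47 and 1.32 against 1.16, 0.863, 1.06 and 1.11. Because the sum was lower in the Dmp1Cre.EfnB2f/f-labelled libraries, a gene with unchanged CPM rises there on this scale. The share of all genes without overlap on this scale was not computed. Macrophage markers summed to 680 to 740 CPM against 615 to 1016 CPM, with overlap, and 6 of 7 had a log2 fold change below 0 (median -0.19). All 5 erythroid markers, whose sums are given below, also had a log2 fold change below 0 (median -0.95). The 6 B cell markers summed to 254 to 307 CPM against 201 to 305 CPM, with 5 of 6 log2 fold changes above 0, and the 5 T cell markers to 31.3 to 45.9 CPM against 29.9 to 52.1 CPM, both with overlap. The part of these cell types in the differences of the integrin chains was not tested.

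**Figure D3:**
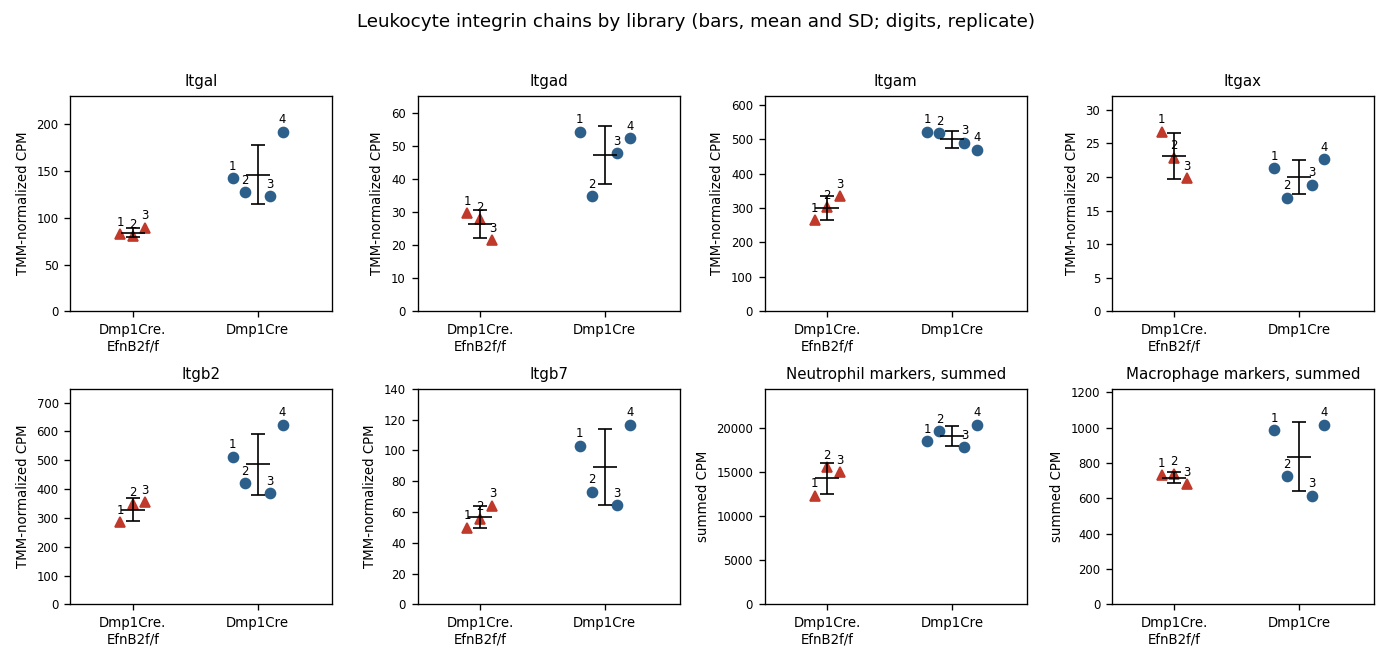
TMM-normalized CPM of 6 leukocyte integrin chains in each library, with the summed CPM of 9 neutrophil and 7 macrophage markers; triangles are the 3 Dmp1Cre.EfnB2f/f-labelled libraries, circles the 4 controls, digits the replicate, bars the mean and SD. Itgal, Itgad, Itgam, Itgb2, Itgb7 and the neutrophil sum did not overlap between the groups, whereas Itgax and the macrophage sum did.

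Higher in all 3 Dmp1Cre.EfnB2f/f-labelled libraries than in every control were Itga1 and Itgb8. Itga1 (chr13:114958079-115101964), the alpha chain of a collagen receptor of stromal and smooth muscle cells, had 88.8, 66.9 and 60.5 CPM against 44.5, 53.8, 59.0 and 44.1 CPM. Its log2 fold change was 0.52 (SE 0.19, edgeR adjusted p = 0.511; exact permutation test, p = 0.0286). The value rested in part on the first library, without which it was 0.34, and with the parent cross as a block it was 0.03. Pelo lies inside the span of Itga1, over 1804 bases, and had 192 to 412 counts and a log2 fold change of -0.35 (SE 0.26). Itgb8 (chr12:119162803-119238276) had 1.89, 1.43 and 1.79 CPM against 1.35, 0.91, 0.70 and 0.27 CPM, a log2 fold change of 1.06 (SE 0.45, edgeR adjusted p = 0.511; exact permutation test, p = 0.0571), and control 4 held only 5 counts of it.

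The remaining collagen-binding chains are Itga2, of platelets and epithelia, Itga10, of cartilage and bone, and Itga11, of mesenchymal cells. Itga10 had 56.8, 58.4 and 43.5 CPM in the Dmp1Cre.EfnB2f/f-labelled libraries and 112, 41.9, 32.7 and 34.4 CPM in the controls. Itga11 had 45.4, 42.8 and 46.3 CPM against 95.0, 34.4, 25.3 and 29.5 CPM. In both genes control 1 was the highest of the 7 libraries and the other 3 controls were below all 3 Dmp1Cre.EfnB2f/f-labelled libraries. Control 1 also had the highest sum of osteoblast and osteocyte markers, 40967 CPM, of which Col1a1 made up 38291 CPM.

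Laminin chains were mostly higher in the Dmp1Cre.EfnB2f/f-labelled libraries, but with overlap. Of the 11 genes, 9 had a log2 fold change above 0, where 51.3% of all genes tested did. Their median was 0.28, and 0 of the 11 had an unadjusted p-value under 0.05 in edgeR's test. The 11 were measured in the same libraries, so they are not independent observations. Lama2 (chr10:26981285-27617191) had 122, 132 and 69.0 CPM against 107, 41.6, 49.3 and 21.5 CPM. Dmp1Cre.EfnB2f/f-labelled libraries 1 and 2 were the highest of all, and control 1 came next. The log2 fold change of Lama2 was 0.97 (SE 0.48, edgeR adjusted p = 0.517; exact permutation test, p = 0.143), and the study chose this gene from these libraries, so its direction is not independent evidence. Blocking on parent cross gave Lama2 a log2 fold change of 0.49 (SE 0.62). The study's limma pipeline, described last and run here without its term for the day of collection, gave 1.503. The paper, from its fit with that term, lists Lama2 as higher and among its top differentially expressed genes.

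Control 1 had the highest level of all 7 libraries in 8 of the 11 laminin genes and in 18 of the 37 chain genes, which was so in 14% of all genes tested. Lama4 had 64.5, 63.8 and 68.3 CPM against 74.2, 35.7, 33.6 and 45.7 CPM, and Lamc1, the gamma chain of most laminins, had 134, 134 and 137 CPM against 158, 87.4, 83.7 and 114 CPM. Lamb2, a beta chain of muscle and vessels, had 154, 158 and 158 CPM against 257, 89.4, 98.7 and 130 CPM. For Lama4, Lamc1 and Lamb2 the Dmp1Cre.EfnB2f/f-labelled libraries lay close together, between control 1 and the other controls. Lama5 had 49.0, 47.5 and 40.2 CPM against 44.1, 25.4, 34.7 and 37.3 CPM. Lamb1 had 53.7, 51.7 and 49.9 CPM against 54.6, 39.0, 32.6 and 44.7 CPM. In both, the other 3 controls were below every Dmp1Cre.EfnB2f/f-labelled library, and control 1 was within or just above their range.

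Without control 1, 7 of the 11 laminin genes were higher in the Dmp1Cre.EfnB2f/f-labelled libraries without overlap, as were 10.5% of all genes. In edgeR's test without control 1, 14 of the 37 chain genes were higher at an unadjusted p-value under 0.05 (7.27% of all genes) and 4 were lower (4.02% of all genes), and 0 passed the adjusted threshold. The 14 included Lama2, Lama4, Lama5, Lamb1, Lamb2, Lamc1 and Lamc3, and the integrin genes Itga3, Itga7, Itga10, Itga11, Itgb4 and Itgb8. The log2 fold change of Lama2 was then 1.52 (SE 0.36) and that of Lama4 0.77 (SE 0.17), each with an adjusted p of 0.369 from edgeR. The counts above and both values were chosen for display after control 1 had been seen to stand apart. Control 1 was more often the highest library among the chain genes than over all genes. Leaving it out therefore raises the counts of higher chain genes more than the shares of all genes. The difference between counts and shares is no evidence of its own. Control 4 lay further out on the first principal component. With control 4 left out instead, the log2 fold changes of Lama2 and Lama4 were 0.70 (SE 0.40) and 0.45 (SE 0.30). With controls 1 and 4 both left out they were 1.25 (SE 0.28) and 0.92 (SE 0.10).

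**Figure D4:**
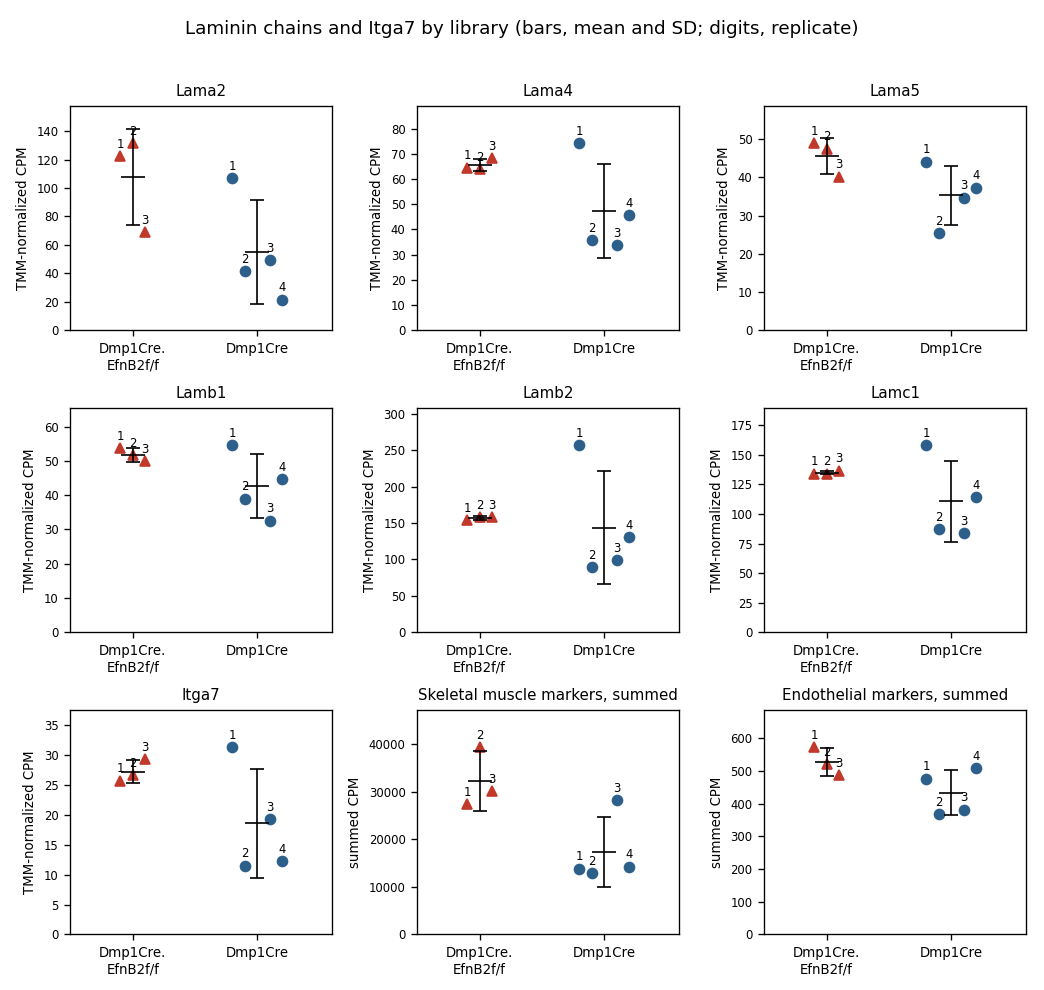
TMM-normalized CPM of 6 laminin chains and Itga7 in each library, with the summed CPM of 9 skeletal muscle and 7 endothelial markers; triangles are the 3 Dmp1Cre.EfnB2f/f-labelled libraries, circles the 4 controls, digits the replicate, bars the mean and SD. Control 1 is the highest control in every laminin panel and in Itga7, but not in either marker panel.

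Itga7, the main laminin receptor chain of muscle fibres, had a like order of libraries, with 25.7, 26.6 and 29.3 CPM against 31.3, 11.5, 19.3 and 12.3 CPM. Itga6, a laminin receptor chain of epithelia, endothelium and platelets, did not, with 200, 186 and 181 CPM against 93.3, 210, 170 and 138 CPM, in which control 1 was the lowest. All 9 skeletal muscle markers had a log2 fold change above 0, with a median of 0.64. Their sum was 27321 to 39295 CPM in the Dmp1Cre.EfnB2f/f-labelled libraries and 12822 to 28183 CPM in the controls, where control 3 was the highest and control 1 had 13829 CPM. Endothelial markers summed to 488 to 573 CPM against 368 to 509 CPM, with overlap, and 6 of 7 had a log2 fold change above 0. Of the 7, 3 were higher at an unadjusted p-value under 0.05 in edgeR's test, where 4.63% of all genes were. These were Flt1, Tek and Emcn, with log2 fold changes of 0.59, 0.54 and 0.44, and their groups did not overlap. The other endothelial markers overlapped. None of the listed muscle and endothelial markers was at 0, and their part in the laminin values was not tested.

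The platelet pair was highest in control 4. Itga2b had 537, 549 and 480 CPM in the Dmp1Cre.EfnB2f/f-labelled libraries and 409, 546, 386 and 962 CPM in the controls. Itgb3 had 848, 794 and 788 CPM against 600, 870, 614 and 1167 CPM. In both genes control 4 was the highest library, as it was for the sum of 8 megakaryocyte and platelet markers, with 2139 CPM against 955 to 1588 CPM in the other 6. The partner of Itgb3 outside platelets, Itgav, had 154, 143 and 124 CPM against 167, 125, 97.9 and 93.4 CPM. Control 1 was the highest for Itgav and had the highest sum of 6 osteoclast markers, 2616 CPM, where the other 6 libraries had 754 to 1303 CPM.

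Itgb6 (chr2:60598292-60722603), a beta chain of epithelia that pairs with alpha v, was high in the 2 mice of 1 parent cross. It had 6.00, 7.29 and 18.0 CPM in Dmp1Cre.EfnB2f/f-labelled libraries 1, 2 and 3 and 5.85, 5.53, 17.1 and 5.38 CPM in controls 1 to 4. The only high libraries were number 3 of each genotype, with 342 and 292 counts against 97 to 133 in the other 5, and the labels give these 2 mice the same parent cross, which none of the others has. In an edgeR fit with the genotype and this cross as terms, the log2 fold change for the cross was 1.53 (SE 0.20, unadjusted p = 5.84e-05 and edgeR adjusted p = 0.882). In that fit 0% of all genes passed the adjusted threshold in either direction, and the cross term was added after these values had been seen.

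**Figure D5:**
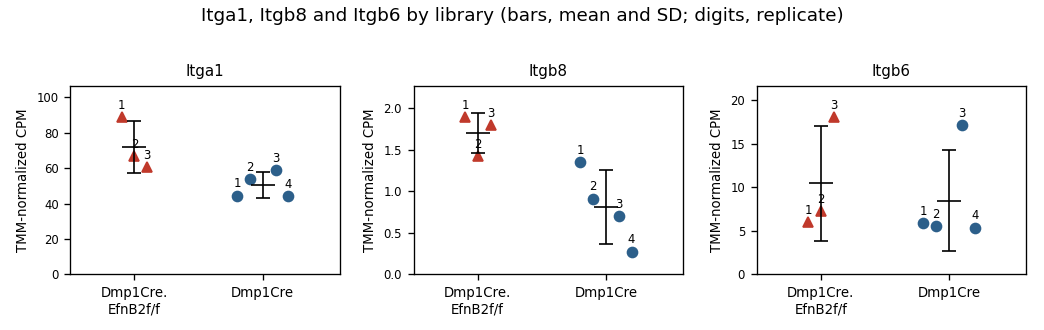
TMM-normalized CPM of Itga1, Itgb8 and Itgb6 in each library; triangles are the 3 Dmp1Cre.EfnB2f/f-labelled libraries, circles the 4 controls, digits the replicate, bars the mean and SD. Itga1 and Itgb8 did not overlap between the groups, and Itgb6 was high only in library 3 of each genotype, at 18.0 and 17.1 CPM.

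The 30 chain genes whose groups overlapped included chains known from osteoblasts and osteocytes. Itgb1 had 382, 326 and 327 CPM in the Dmp1Cre.EfnB2f/f-labelled libraries and 242, 352, 308 and 194 CPM in the controls. Itga5, the fibronectin receptor chain, had 38.0, 32.2 and 37.3 CPM against 50.9, 35.9, 35.3 and 41.0 CPM. Itgb5, which pairs with alpha v, had 109, 122 and 103 CPM against 165, 96.4, 75.9 and 145 CPM. For Itgb1, Itga5 and Itgb5 the spread among the controls covered most or all of the other group. The log2 fold changes of the members with an unadjusted p-value of 0.05 or more ran from -0.27 to 0.97.

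Further chains also overlapped between the groups. Itga2 had 39.9 to 55.3 CPM in the Dmp1Cre.EfnB2f/f-labelled libraries and 32.1 to 49.0 CPM in the controls, and Itga9, a receptor chain for tenascin and osteopontin, had 39.1 to 55.7 against 35.8 to 51.7 CPM. Itga8, a chain of mesenchymal cells, had 6.42 to 7.73 against 6.67 to 8.48 CPM. Itgb4, the laminin receptor chain of epithelia and Schwann cells, had 9.28 to 10.3 against 4.57 to 11.5 CPM, with control 1 the only control above 7.17 CPM. Of the minor laminin chains, Lama1 had 5.75 to 7.68 against 5.54 to 8.95 CPM, Lama3 had 10.01 to 14.4 against 5.76 to 15.2 CPM, and Lamc3 had 10.8 to 27.0 against 5.56 to 30.5 CPM. In Lama3, Lamb3 and Lamc3 control 1 was again the highest library.

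Genes around the chains were described by lists. Of 22 ligands of integrins 18 were tested, and 0 were higher and 1 was lower at an unadjusted p-value under 0.05, near the 4.63% and 5.03% of all genes. The gene was Icam4, a ligand on red cells, with a log2 fold change of -0.99 (SE 0.39). The erythroid markers summed to 2518 to 4115 CPM against 4639 to 10939 CPM, and their part in this was not tested. Among the 28 proteins that bind integrin tails or build focal adhesions 27 were tested, and 4 were higher (4.63% of all genes) and 1 was lower (5.03% of all genes). Fermt2, the integrin activator kindlin-2 of adherent cells, had 74.3, 77.7 and 69.9 CPM against 43.9, 35.9, 53.8 and 24.5 CPM, a log2 fold change of 0.90 (SE 0.25). Ptk2, the focal adhesion kinase, had a log2 fold change of 0.57 (SE 0.17), Tln2, the talin of muscle, of 0.52 (SE 0.15), and Itgb1bp2, the muscle protein melusin, of 0.62 (SE 0.24). The lower gene was Parvg, the parvin of blood cells, with -0.57 (SE 0.22).

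All 17 basement membrane partners and other laminin receptors were tested, and 4 were higher (4.63% of all genes) and 0 were lower (5.03% of all genes) at an unadjusted p-value under 0.05. Among them were Sgca, Sgcb and Sgcd, membrane proteins of the dystrophin complex, which links laminin to the muscle cytoskeleton. Sgca had 30.4, 33.6 and 31.4 CPM against 20.4, 13.1, 22.9 and 16.4 CPM and a log2 fold change of 0.80 (SE 0.21), and those of Sgcd and Sgcb were 0.66 and 0.66. Of the 9 skeletal muscle markers described above 3 were higher at this threshold and all 9 overlapped between the groups, and their part in these values was not tested. In all 3 lists 0 genes had an adjusted p-value under 0.05 in edgeR's test.

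The study's own test is limma on quantile-normalized log2 CPM with sample quality weights. Without a term for the day of collection it called 9 of the 37 chain genes higher (7.49% of all genes) and 4 lower (7.39% of all genes) at an adjusted p-value under 0.05. Higher were Lama2, Lama4, Lama5, Lamb1, Lamb2, Lamc1, Itga3, Itga7 and Itgb4, and lower were Itgal, Itgad, Itgam and Itgb7. With the weights left out the same pipeline called 0 of the 37 and 0 of all genes. DESeq2 called 3 chain genes lower, Itgal, Itgad and Itgam (0.318% of all genes were lower), with adjusted p-values of 0.0331, 0.0355 and 0.00176.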

How the data were processed

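RNA-sequencing of femoral cortical bone was analysed in 7 mice, 3 labelled Dmp1Cre.EfnB2f/f and 4 labelled Dmp1Cre. For this, the authors aligned 100 bp paired-end reads to mm10 with Rsubread, counted them with featureCounts on its Entrez annotation, and deposited raw counts per gene, without normalization or pooling. Versions of both, and the strand setting, are not given in the sources used here, so genes that overlap cannot be told apart by strand. The table of the whole series and the single files held the same counts (0 differences), and 26 symbols differed.

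A minimum of 0.65 CPM, reached by 3 or more libraries, retained 16302 genes, and 1204 were left out by class after the study's list (179 immunoglobulin segments, 523 predicted genes, 313 pseudogenes, 4 ribosomal RNA genes, 1 on Y or Xist, 184 without a symbol), which left 15098. The study names ribosomal genes without defining them, and ribosomal protein genes were kept here. The quasi-likelihood test of edgeR 4.0.16 (R 4.3.3) followed TMM scaling and a robust dispersion fit, and its p-values were adjusted by Benjamini-Hochberg over all 15098; the script was tested on simulated data. Standard errors are the log2 fold change over the square root of F. limma 3.58.1 and DESeq2 1.42.0 were alternatives. Permutation tests compared absolute differences of means over all 35 assignments of 3 of 7 libraries. p-values measure the spread between these mice. The members, lists and rules were chosen with earlier results of these data known. Full statistics are given for members with an unadjusted p-value under 0.05 or without overlap, for Lama2, and for Itgb6, which was picked after its values were seen. The sequences are from RefSeq (GRCm38.p6), without the 50 bases after the start.

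The study's model has the day of collection as a term. It was not fitted, since the sources used here give how many mice of each genotype were collected on each of 2 days but not which. Single values of 1 chain gene and of 1 gene of a list are not reported here.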

Additional observations from a re-analysis of the deposited data

Results flagged for a closer look

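In 4 of the 37 chain genes a control lay far from the other 3 controls, judged by the gap to its nearest neighbour as a part of the whole range (against Dixon's 95% critical value). About 1 group in 20 would do so by chance, or 1.85 of 37, if the groups were independent. All 37 groups are the same 4 controls, so the count cannot be judged against that number. The value was 0.914 for Itga3, 0.883 for Itga10 and 0.869 for Itga11, in each of which control 1 was the high library, and 0.960 for Itgb6, in which control 3 was. Itga3, a laminin receptor chain of epithelia, had 10.9 CPM in control 1 and 4.22 to 4.79 CPM in the other controls. The parent cross of control 3 is shared with the other high library of Itgb6, and the high sum of osteoblast and osteocyte markers in control 1, mostly Col1a1, stands beside the values of Itga10 and Itga11. The part of either in these values was not tested.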

How the results depend on the processing

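The 8 members with full statistics kept their direction in all 151 values over the 19 alternatives (Itgb8 has none with at least 10 counts in every library), although Itgb7 came to -0.01 and Itga1 to 0.03 with the parent cross as a block, and in 8 of these, from limma and DESeq2, an adjusted p-value fell under 0.05. The number of chain genes past the adjusted threshold was 0 except with limma and weights (13) and DESeq2 (3), and that of all genes was 2246 and 72 there, 1 with the replicate block, 2 without controls 1 and 4 together, and 0 to 2 with each library left out. Chain genes at an unadjusted p-value under 0.05 numbered 7, and 23 with limma and weights, 3 with the replicate block, 1 with the parent cross as a block, 17 without controls 1 and 4, and 3 to 18 with each library left out, lowest (3) without library 1 labelled Dmp1Cre.EfnB2f/f, 4 without its library 2 and highest (18) without control 1. The replicate numbers are not given as pairs, though library 3 of each genotype shares a parent cross. Deviations of same-numbered libraries had correlations of -0.29, 0.01 and -0.30, but with 3 libraries per group these cannot show whether pairs exist. The replicate block therefore says nothing of a weaker effect. Of the ratios, taken as medians over the 7 libraries, those from raw counts were 1.42 for the Itgb2 partners (0.868 per kilobase), 0.815 for the Itgb3 partners (1.21) and 1.04 for laminin beta to alpha (1.57), because these chains differ in length. Of the 11 laminin genes, 8 to 10 had a log2 fold change above 0 under every alternative, with a median from 0.17 to 0.66. Genes with few counts, such as Itgb8, are limited by depth.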
